A study of Mus musculus with 6 samples.

Results

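The expressed -ps genes of mouse liver were examined, that is, genes whose symbol ends in -ps or in -ps and a number, the mouse naming for a pseudogene copy of a parent gene. Copies of ribosomal protein genes (symbols starting with Rpl or Rps), Ftl1-ps2 and Serpina4-ps1 were left out, and a mean of at least 10 read counts over the 6 mice was required. Of the 45777 genes in the deposited table, 524 had such a symbol and 144 reached the minimum, 259 had no count in any mouse and 121 lay between. RNA was sequenced from whole liver of 3 WT animals, which were Pak4 flox/flox, and of 3 LKO animals, which carried Alb-Cre on the same Pak4 flox/flox genotype. All were males 8 weeks old and fasted for 24 h, with 1 library per mouse. The methods give the WT mice as littermates. All 6 mice carried the floxed Pak4 alleles, and LKO mice in addition the albumin promoter transgene that drives Cre recombinase in hepatocytes. P-values below measure the spread between these mice, whose litters the sources do not give.

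A processed pseudogene arises when the mRNA of a gene is copied into DNA and inserted elsewhere in the genome, without introns and usually without the promoter of the parent. An unprocessed pseudogene arises by duplication of a stretch of DNA and can keep introns and regulatory sequence. Many processed copies are almost identical to the spliced mRNA of the parent, so that a read can fit both loci, and the count of a copy rests in part on how the aligner places such reads.

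The label processed did not hold for all 144 genes. In GENCODE M21 (GRCm38, the assembly of mm10), 131 of them were found, of which 83 were processed pseudogenes, 38 unprocessed, 3 unitary and 7 not annotated as pseudogenes. In the deposited table, 108 were classed as pseudogenes, 29 as transcribed pseudogenes, 4 as protein coding, 2 as lncRNA and 1 as misc RNA. The group is therefore called the -ps genes here. A parent was present in the table for 105 of them, 90 under the same symbol without -ps and 15 under a synonym, which made 83 distinct parents, 82 of them tested. The name did not always point to the nearest gene. Among 94 -ps genes with a parent and a GENCODE transcript, the protein-coding gene with the best sequence match was the named parent for 79.

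A few sets of sequences, chosen after the values were seen, show how far a copy can be told from its parent. The first 300 coding bases of Pdcd5, which encodes programmed cell death protein 5, are shown once because Pdcd5-ps has the same letters at chr1:189277524-189277823 on the minus strand. Over all 381 coding bases, 0 differences were found.
Pdcd5 and Pdcd5-ps: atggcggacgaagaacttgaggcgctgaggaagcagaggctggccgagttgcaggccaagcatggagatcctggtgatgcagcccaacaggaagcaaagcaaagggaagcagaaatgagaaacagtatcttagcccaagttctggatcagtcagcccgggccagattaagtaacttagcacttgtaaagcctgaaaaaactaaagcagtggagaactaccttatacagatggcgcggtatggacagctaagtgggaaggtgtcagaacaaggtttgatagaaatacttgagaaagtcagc

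Mrpl48 encodes a protein of the large subunit of the mitochondrial ribosome. Mrpl48-ps differed from it at 12 of 636 coding bases. The stretch of 150 bases with the most differences, 7, lies at chr4:88599362-88599511 on the minus strand. Capitals mark the bases that differ between the sequences of a set, here and below, and in the parent those that differ from any copy shown.
Mrpl48: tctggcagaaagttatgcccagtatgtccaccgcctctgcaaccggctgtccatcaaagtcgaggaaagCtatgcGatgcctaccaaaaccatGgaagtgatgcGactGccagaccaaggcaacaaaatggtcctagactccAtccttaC
Mrpl48-ps: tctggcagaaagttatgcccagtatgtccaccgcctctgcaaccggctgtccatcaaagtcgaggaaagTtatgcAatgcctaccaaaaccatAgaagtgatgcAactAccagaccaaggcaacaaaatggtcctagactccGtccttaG

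Ftl1 encodes the light chain of ferritin, the iron storage protein. Ftl1-ps1, shown at chr13:74406958-74407107 on the plus strand, had 2 differences in 552 coding bases, and Ftl2-ps, shown at chr4:125504642-125504791 on the plus strand, had 7.
Ftl1: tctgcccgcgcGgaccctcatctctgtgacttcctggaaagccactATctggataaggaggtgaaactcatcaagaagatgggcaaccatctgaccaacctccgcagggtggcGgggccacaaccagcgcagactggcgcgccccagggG
Ftl1-ps1: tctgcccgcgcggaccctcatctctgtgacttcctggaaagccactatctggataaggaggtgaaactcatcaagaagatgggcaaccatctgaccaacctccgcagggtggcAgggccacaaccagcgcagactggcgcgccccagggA
Ftl2-ps: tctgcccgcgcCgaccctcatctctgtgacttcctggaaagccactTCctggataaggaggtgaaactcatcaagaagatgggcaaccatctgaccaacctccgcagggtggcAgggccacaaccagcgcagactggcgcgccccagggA

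Hspd1 encodes the chaperonin of the mitochondrial matrix. Hspd1-ps3, shown at chr11:41499481-41499630 on the plus strand, was 99.0% identical to its coding sequence. Hspd1-ps4, shown at chr4:106136891-106137040 on the minus strand, was 92.9% identical over 1668 aligned bases.
Hspd1: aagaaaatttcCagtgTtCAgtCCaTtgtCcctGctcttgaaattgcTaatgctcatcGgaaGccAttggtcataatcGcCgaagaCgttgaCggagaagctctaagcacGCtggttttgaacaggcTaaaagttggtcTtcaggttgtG
Hspd1-ps3: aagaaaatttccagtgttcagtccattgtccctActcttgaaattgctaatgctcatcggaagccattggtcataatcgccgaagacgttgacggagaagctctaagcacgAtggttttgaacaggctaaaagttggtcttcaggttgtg
Hspd1-ps4: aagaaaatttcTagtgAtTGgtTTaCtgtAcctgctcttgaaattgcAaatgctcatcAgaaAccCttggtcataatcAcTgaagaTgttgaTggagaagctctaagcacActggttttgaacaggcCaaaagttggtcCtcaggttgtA

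Gstm2-ps1 is named after the glutathione S-transferase Gstm2 but was closest to Gstm1, with 97.9% identity over 657 bases, against 85.6% to Gstm2. It is shown at chr5:116633319-116633468 on the minus strand.
Gstm1: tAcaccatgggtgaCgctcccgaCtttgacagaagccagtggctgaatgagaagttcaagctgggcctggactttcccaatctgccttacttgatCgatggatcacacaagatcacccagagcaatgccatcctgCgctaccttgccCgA
Gstm2-ps1: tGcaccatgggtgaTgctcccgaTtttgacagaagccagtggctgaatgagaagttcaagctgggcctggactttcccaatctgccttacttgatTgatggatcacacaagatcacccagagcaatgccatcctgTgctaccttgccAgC

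Each transcript was cut into overlapping windows of 100 bases, the read length in the methods, and each window was looked for in the transcripts of all other genes. Of the 131 -ps genes with a transcript, 15 shared no window, 56 shared some but under 50%, and 60 shared at least 50%. The median share was 42.1%. All windows of Pdcd5-ps occurred in Pdcd5, 24.0% of those of Mrpl48-ps occurred elsewhere, and 0 of those of Hspd1-ps4 did. The windows came from GENCODE transcripts, and the counted gene can be longer. Marcksl1-ps4 had 291 transcript bases, whereas its gene runs over chr13:4248735-4249777. Bases outside the transcripts were not compared. Identity to the named parent, over the aligned part alone, was 82.8 to 100% with a median of 98.5% over 92 copies. The aligned part was the full length of many copies, but 19.6% of Nlrp5-ps, 22.4% of Gpr137b-ps and 26.5% of Pisd-ps2.

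The libraries held 45934632 to 55205564 counts in WT livers and 53936281 to 59576437 in LKO livers. TMM scaling factors were 1.283 to 1.425 in WT and 0.639 to 0.816 in LKO livers, and gave a median log2 fold change of -0.04 over the 18636 genes tested. Without them, on total counts, this median was -0.90. Every log2 fold change and every CPM value below is therefore relative to the TMM scale, unless another scale is named. Pak4 counts were 268, 210 and 271 in WT and 85, 52 and 149 in LKO livers, and the log2 fold change of -0.71 ± 0.31 (SE) was not called by edgeR's quasi-likelihood test (adjusted p = 0.101). The liver label held: hepatocyte markers summed to 43600 to 47000 CPM in WT and 107000 to 130000 in LKO livers. On the TMM scale, marker sums of Kupffer cells (271 to 413 against 438 to 850 CPM), endothelial cells (334 to 393 against 601 to 656), stellate cells (227 to 268 against 578 to 847), red blood cells (192 to 324 against 879 to 1630) and neutrophils (0.885 to 6.04 against 13.1 to 27.7) were higher in every LKO mouse. These sums were not taken on total counts, where a smaller difference can vanish. Those of cholangiocytes were lower in every LKO mouse (32.9 to 50.1 against 13.4 to 29.9 CPM) and those of T, B and NK cells overlapped. By gene, 0 of 4 cholangiocyte markers tested were called higher and 1 lower with a median log2 fold change of 0.08, 3 of 7 Kupffer cell markers were higher and 1 lower, and 2 of 5 red blood cell markers were higher and 1 lower. The part of these lists in the results below was not tested, and in whole liver fewer cells of a type and less RNA per cell cannot be told apart.

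Expression of the -ps genes spanned a wide range. Mean counts ran from 10 to 362589 with a median of 106. Below 100 counts lay 71 genes. Just inside the minimum were Tpm4-ps (mean 10 counts) and Smarce1-ps1 (10.3), and just outside were Mrps36-ps2 (9.67) and Apoo-ps (9.17). Every -ps gene passed the filter of at most 1 zero among 6 mice, and 140 had a count in every mouse. Together they took 0.845 to 1.14% of the counts in WT and 0.391 to 0.952% in LKO livers, most of it by 1 gene. Mup-ps19, a copy in the cluster of major urinary proteins, had 367224, 437963 and 440454 counts in WT and 127926, 428724 and 373241 in LKO livers. LKO mouse 1 was the lowest and the groups overlapped (log2 fold change 0.35 ± 0.48, adjusted p = 0.591), and without LKO mouse 2 the value was -0.15. The next in mean count were Gstp-ps, Mug-ps1, Ftl2-ps and Ndufb1-ps. Mug-ps1, a copy of the murinoglobulin protease inhibitors, had 7301, 9018 and 8761 counts in WT and 7141, 5454 and 6567 in LKO livers (log2 fold change 0.32 ± 0.17, adjusted p = 0.17). Its CPM were all higher in LKO livers, whereas on total counts its log2 fold change was -0.54.

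With the quasi-likelihood test of edgeR, Benjamini-Hochberg adjusted across every gene tested, and a threshold of 0.05, 42 of the 144 -ps genes (29.2%) were higher and 19 (13.2%) lower in LKO livers, and 83 were not called. Over all 18636 genes, 19.6% were higher and 20.5% lower, 40.1% in all. The median log2 fold change was 0.29, with a range of -3.45 to 7.49. CPM did not overlap between the genotypes for 55 that were higher and 33 that were lower in LKO, of 144, where 26.1% and 27.9% of all genes did so. Ribosomal protein -ps genes had 54 of 88 higher and 0 lower (median 1.18), and other annotated pseudogenes with the same minimum 206 of 835 higher and 125 lower (median 0.18). Among the 61 -ps genes called, 68.9% were higher, against 49.0% over all genes. On total counts 15 -ps genes were higher and 56 lower, as 10.9% of all called genes were higher there, and with limma on log2(TPM + 1) 5 were higher and 94 lower, where 3.09% of all called genes were higher. The -ps genes that lay above the median of all genes numbered 83 of 144 on the TMM scale and on total counts. A scaling factor per mouse moves all genes nearly alike, so these counts could hardly differ. The number was 93 on log2(TPM + 1), 85 on log2(TPM + 0.1) and 78 with offsets that follow gene length in each mouse.

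Gene length moved with these counts. The relative length, read count over FPKM, had a median of 1600 bases in -ps genes and 3052 in all genes tested, of 1261 in the -ps genes called higher and of 2048 in those called lower. With offsets that follow gene length in each mouse, 37 were higher and 28 lower, 56.9% of those called were higher, against 50.3% over all genes with the same offsets, and the median was 0.07.

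The minimum of 10 counts can be met through 1 genotype alone. This held for 6 genes in LKO livers, of which 5 were called higher (Chchd2-ps, Ldha-ps2, Pdcd5-ps, Rbpj-ps2 and Rtraf-ps), and for 13 in WT livers, of which Apc-ps1 and Cd63-ps were called lower. Such a gene was picked in part through its difference, so its call and p-value are a description. The counts that follow stand beside 19.6% higher and 20.5% lower over all genes. Of the 125 that reached 10 in each genotype, 37 (29.6%) were higher and 17 (13.6%) lower. By GENCODE class, 27 of 83 processed copies (32.5%) were higher and 10 (12.0%) lower (median 0.32). Of 38 unprocessed copies, 7 (18.4%) were higher and 8 (21.1%) lower (median 0.29), near the shares over all genes. Of the 71 with under 50% of windows shared, 18 (25.4%) were higher and 12 (16.9%) lower. Of the 60 with at least 50%, 20 (33.3%) were higher and 7 (11.7%) lower. Leaving out WT mouse 1 or LKO mouse 2 brought the higher calls to 28, and leaving out WT mouse 2 or LKO mouse 3 the lower calls to 13.

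Pdcd5-ps, Entrez gene 100042424, chr1:189277322-189277847, was known for its large difference when the list was drawn up, and its values are given as a description with no test. It lies within an intron of the potassium channel gene Kcnk2 on the same strand, which had 0 counts in 5 mice and 8 in LKO mouse 3. Counts of Pdcd5-ps were 1, 7 and 3 in WT livers and 444, 380 and 424 in LKO livers. All LKO mice were far above all WT mice, with 10.1 ± 0.864 CPM against 0.0553 ± 0.0476 (mean ± SD, n = 3 each) and a log2 fold change of 7.49 ± 0.43 (SE). It was 7.01 to 8.32 with any 1 mouse left out. The parent Pdcd5 had 1011, 878 and 907 counts in WT and 687, 633 and 671 in LKO livers, or 13.6 ± 0.147 and 16.1 ± 1.87 CPM (log2 fold change 0.25 ± 0.15, adjusted p = 0.218). In TPM, a scale per length, Pdcd5-ps was at 0.195 ± 0.201 and Pdcd5 at 41.6 ± 2.24 in WT livers, and at 12.9 ± 1.39 and 16.8 ± 1.21 in LKO livers. Pdcd5-ps thus made up 0.0988, 0.791 and 0.330% of the counts of the pair in WT livers and 39.3, 37.5 and 38.7% in LKO livers. The sum of the pair was 1012, 885 and 910 counts in WT and 1131, 1013 and 1095 in LKO livers. On the TMM scale this sum was 13.6 ± 0.123 CPM in WT and 26.1 ± 2.71 in LKO livers, 1.92-fold higher. The 381 coding bases of both are identical, but the locus of Pdcd5-ps given above is longer, and its other bases were not compared. How the reads of the pair were divided was not tested. Within 1 Mb of Pdcd5-ps, 9 other genes were tested, of which 3 were higher and 3 lower.

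**Figure D1:**
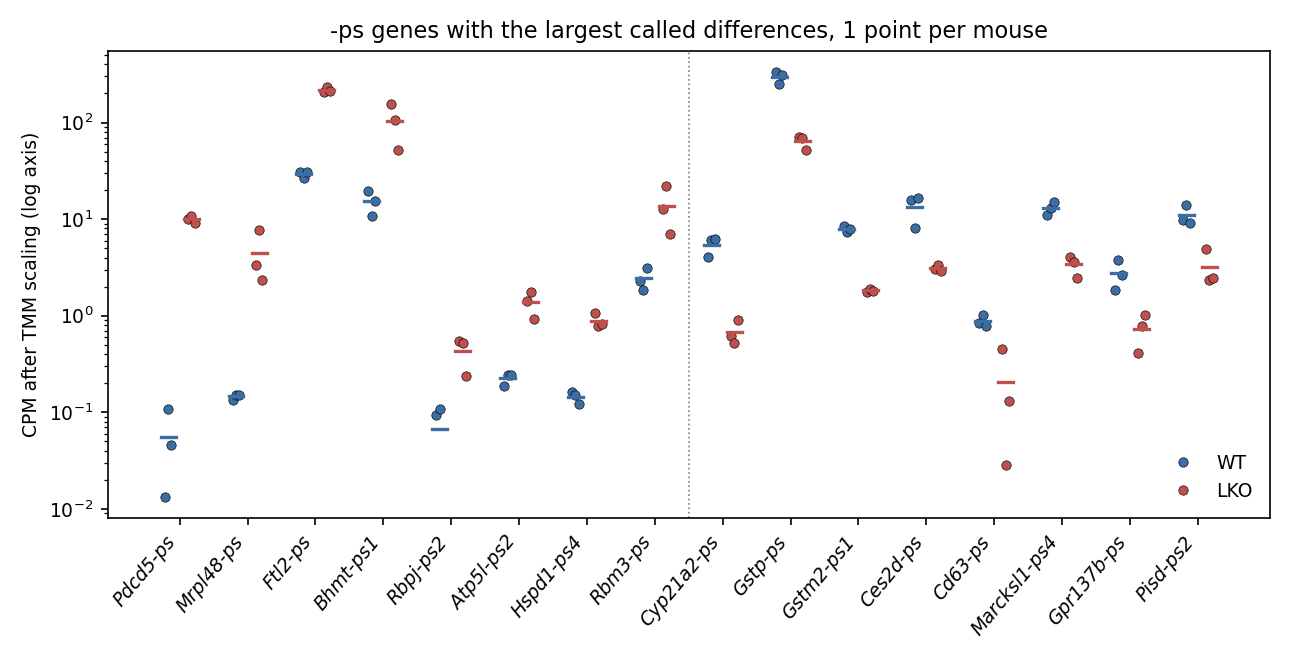
CPM after TMM scaling on a log axis for the 8 -ps genes with the largest positive called difference (left of the dotted line) and the 8 with the largest negative one, 1 point per mouse (n = 3 per genotype) with a bar at the mean; 1 WT mouse with 0 counts of Rbpj-ps2 has no point. No gene shown overlapped between WT and LKO mice, and Pdcd5-ps had a mean of 0.0553 CPM in WT and 10.1 in LKO livers. Pdcd5-ps, Rbpj-ps2 and Cd63-ps reached the minimum of 10 counts through 1 genotype alone.

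The -ps genes were grouped by the role of the parent, read from the first letters of the symbol, which leaves copies of other mitochondrial genes (Hspd1, Pisd and Mpc1 among them) in other groups. Of the copies with symbols of the respiratory chain, ATP synthase, porin and mitochondrial ribosome, 6 of 10 were higher and 0 lower, with a median log2 fold change of 1.24, whereas 4 were higher and 3 lower on total counts, 5 higher and 2 lower with gene length offsets, and 3 higher and 5 lower on log2(TPM + 1). Pisd-ps1 and Pisd-ps2, mitochondrial by function but outside this group, were both called lower. Mrpl48-ps had 10 counts in each WT mouse and 149, 269 and 108 in LKO livers. Every LKO mouse was above every WT mouse, with LKO mouse 2 the highest, and the log2 fold change was 4.91 ± 0.53 (adjusted p = 0.000411). Mrpl48 itself was higher by 0.81 ± 0.20 on the log2 scale (adjusted p = 0.0118). Atp5l-ps2, a copy of the gene for subunit g of ATP synthase, had 14 to 16 counts in WT and 43 to 62 in LKO livers (log2 fold change 2.60 ± 0.38, adjusted p = 0.00130). Its parent Atp5l rose by 1.96 on the log2 scale (adjusted p = 0.00061), and the host Brip1, in whose intron the copy lies on the opposite strand, fell by 1.70. Ndufb1-ps, which GENCODE does not class as a pseudogene, is named after a subunit of complex I and had 4010, 2770 and 3383 counts in WT and 4925, 9317 and 5635 in LKO livers. All 3 LKO mice were higher on the TMM scale (log2 fold change 1.77 ± 0.33, adjusted p = 0.00373). Atp5l2-ps, Atp5pb-ps and Vdac3-ps1 were the other 3 called, at 2.12, 1.70 and 0.79 on the log2 scale, chosen for mention after their values were seen.

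Copies of genes for nuclear and chromatin proteins had 8 of 14 higher and 0 lower. All 14 log2 fold changes were positive on the TMM scale, from 0.12 to 1.20. On total counts, however, 4 of 14 were positive with 0 higher and 1 lower. On log2(TPM + 1), 0 of 14 were positive with 10 lower. The 14 include 5 copies of Hmgb1, 3 of Cbx3, 3 of Sumo2 and 2 of H3f3a. Copies of 1 parent can share reads, so the 14 are not independent of each other. All 3 copies of Cbx3, which encodes a heterochromatin protein, were called higher, at 0.86 to 1.17, and on total counts, at -0.02 to 0.28, none was. Cbx3-ps6, the most abundant of the group, had 662, 479 and 553 counts in WT and 603, 579 and 656 in LKO livers. These counts overlapped, whereas the CPM did not (log2 fold change 0.86 ± 0.16, adjusted p = 0.00389), and on total counts the log2 fold change was -0.02. Cbx3 rose by 0.86 as well, and Cbx3-ps6, whose windows all occurred in other transcripts, made up 28.0 to 29.6% of the pair in WT and 28.5 to 28.9% in LKO livers. Of 5 copies of Hmgb1, a DNA-bending protein of chromatin, 4 were higher, with 0.80 to 1.16 over all 5, but 1 with gene length offsets and none on total counts, where the range was -0.07 to 0.31, and on log2(TPM + 1) 3 were lower. Hmgb1 rose by 0.65 (adjusted p = 0.0182). Hmgb1 copies together held 5.05 to 5.44% of the counts of Hmgb1 and its copies in WT and 5.89 to 6.11% in LKO livers.

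Of the copies of hepatic enzyme and secretory genes, 4 of 16 were higher and 5 lower. The 4 that were higher were all copies of major urinary protein genes (Mup-ps9, Mup-ps15, Mup-ps16 and Mup-ps18), and all 8 Mup copies had positive log2 fold changes on the TMM scale, 0.35 to 2.09, against 5 of 8 on total counts, 6 of 8 with gene length offsets and 2 of 8 on log2(TPM + 1). The 4 higher calls became 1 on total counts, 1 with gene length offsets, and 0 on log2(TPM + 1), where 2 were lower. The lower ones were copies of detoxification and steroid genes. Cyp21a2-ps, an unprocessed copy of the steroid 21-hydroxylase gene, had 301, 398 and 409 counts in WT and 27, 18 and 42 in LKO livers. No LKO mouse came near the WT range, and the log2 fold change was -2.98 ± 0.31 (adjusted p = 0.000377). The closest coding gene to Cyp21a2-ps was Cyp21a1, with 97.4% identity over 85.5% of the copy. Cyp21a1 had 60, 48 and 95 counts in WT and 0, 3 and 0 in LKO livers, and was not tested. Cyp21a2-ps lies on the opposite strand of an exon of Tnxb, which was not called (log2 fold change -0.14 ± 0.26, adjusted p = 0.685). Without knowing whether the counting used strand, reads of these overlapping genes cannot be told apart.

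Gstp-ps, a processed copy closest to the pi-class glutathione S-transferase Gstp2 (99.2% identity), had 24888, 16407 and 20748 counts in WT and 3131, 2409 and 2410 in LKO livers. The groups were far apart, at 299 ± 43.3 and 64.1 ± 10.4 CPM (log2 fold change -2.22 ± 0.20, adjusted p = 0.000252). Gstp2 fell by 2.06 (SE 0.18, adjusted p = 0.000243). Gstm2-ps1 had 639, 486 and 518 counts in WT and 78, 66 and 84 in LKO livers, again without overlap (log2 fold change -2.12 ± 0.19, adjusted p = 0.000251). Its named parent Gstm2 did not pass the test (0.07 ± 0.17, adjusted p = 0.768), whereas Gstm1, the closest gene in sequence, fell by 1.77 (adjusted p = 0.000333). Ces2d-ps, an unprocessed copy of the carboxylesterase 2 family, had 532 to 1177 counts in WT and 118 to 135 in LKO livers (log2 fold change -2.11 ± 0.28, adjusted p = 0.000877). Its closest coding gene, Ces2c (96.0% identity), fell by 2.42 (adjusted p = 0.000431).

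**Figure D2:**
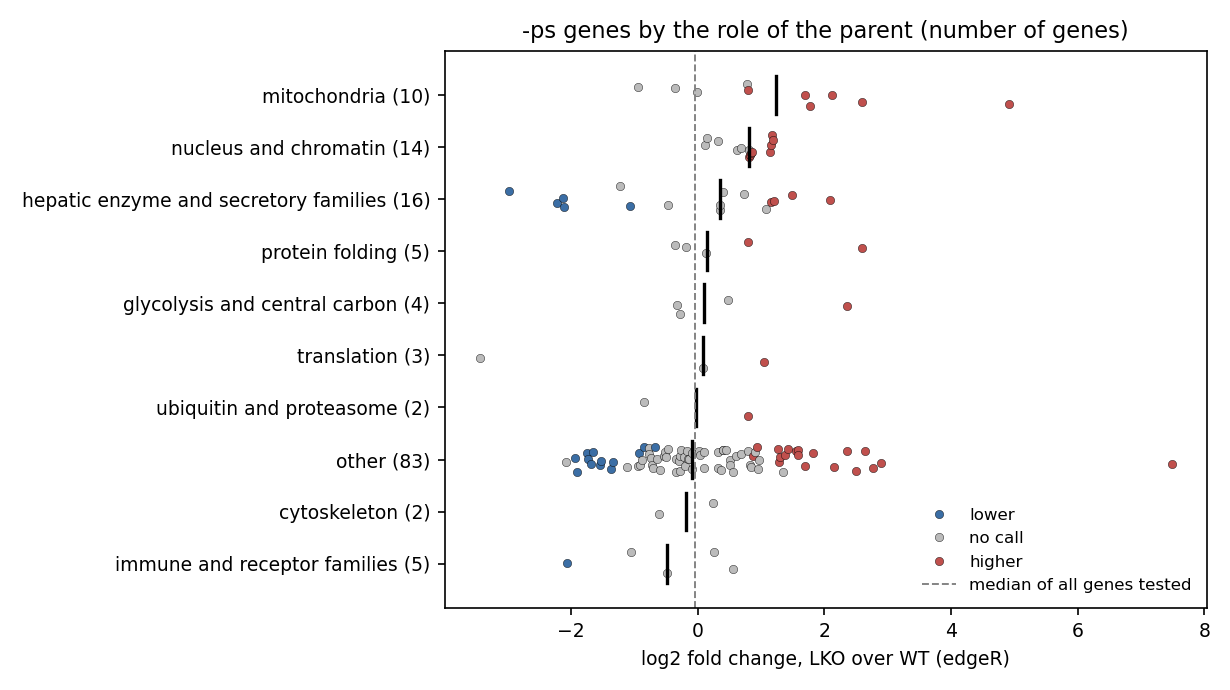
Log2 fold change of LKO over WT (edgeR, horizontal axis) of each of the 144 -ps genes, in rows by the role of the parent, with the number of genes in parentheses; points are coloured by call, black bars are medians, and the dashed line is the median of all genes tested. The groups labelled mitochondria (6 of 10 higher) and nucleus and chromatin (8 of 14) held no lower call on this scale, with the lower Pisd copies among the other genes, and hepatic copies held calls in both directions.

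The smaller groups held few calls. In protein folding, 2 of 5 were higher. Hspd1-ps4 had 12, 10 and 8 counts in WT and 47, 27 and 38 in LKO livers, with every LKO mouse above the WT range (log2 fold change 2.60 ± 0.37, adjusted p = 0.00115). Hspd1-ps3 had 482, 245 and 340 counts in WT and 247, 237 and 208 in LKO livers, which did not pass the test (0.14 ± 0.26, adjusted p = 0.699), nor did Hspd1 (0.05 ± 0.21, adjusted p = 0.878). Of the copies of central carbon genes, Ldha-ps2 was the 1 of 4 called, with 4, 3 and 10 counts in WT and 32, 12 and 11 in LKO livers (log2 fold change 2.36 ± 0.64, adjusted p = 0.0192). Its call was lost without WT mouse 1, WT mouse 2 or LKO mouse 1 (adjusted p = 0.0619 to 0.0712). Ldha-ps2 reached the minimum through LKO livers alone, so its call is a description. Pgam1-ps2, a copy of phosphoglycerate mutase, had 1450 to 2123 counts in WT and 767 to 1043 in LKO livers and overlapped in CPM (-0.29 ± 0.17, adjusted p = 0.219).

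In translation, Eif4a-ps4, closest in sequence to the helicase gene Eif4a1, was called (401 to 1064 counts in WT, 683 to 860 in LKO livers, log2 fold change 1.04 ± 0.32, adjusted p = 0.0300), and the call was lost without WT mouse 2, WT mouse 3 or LKO mouse 2 (adjusted p = 0.0976 to 0.112). Eif3s6-ps2 showed what a single library can do. It had 155 counts in WT mouse 1 and 2 and 1 in the other WT mice, and 6, 1 and 1 in LKO livers, and its log2 fold change of -3.45 ± 1.69 was not called (adjusted p = 0.139). Ube2d-ps, named after ubiquitin-conjugating enzyme genes, was the 1 of 2 called in its group (259 to 290 counts in WT, 261 to 311 in LKO, log2 fold change 0.80 ± 0.22, adjusted p = 0.0183). The call was lost without WT mouse 1, WT mouse 2 or LKO mouse 2 (adjusted p = 0.0570 to 0.0606). Its best coding match was Urgcp, over 6.1% of the copy. Ube2d-ps lies on the opposite strand of an exon of Urgcp, which was not called (-0.44 ± 0.17, adjusted p = 0.0673). As for Cyp21a2-ps, reads of these overlapping genes cannot be told apart without knowing the use of strand. Tubb4b-ps1, from a tubulin gene, was not called (-0.62 ± 0.32, adjusted p = 0.162) and 0 of 2 cytoskeletal copies were. The group of 5 immune and receptor copies was set by the letters of the symbol, which alone placed Trmt112-ps2 there. Of the 5, only Cd63-ps was called lower. This copy of a tetraspanin gene had 63, 67 and 52 counts in WT and 20, 1 and 6 in LKO livers (-2.06 ± 0.67, adjusted p = 0.0373). The call was lost without any 1 of WT mouse 1, 2 or 3 or LKO mouse 2 or 3 (adjusted p = 0.0661 to 0.0986). Cd63-ps reached the minimum through WT livers alone, so its call is a description. Ifi203-ps, an interferon-inducible family member, was not called (0.55 ± 0.21, adjusted p = 0.0664), but was without LKO mouse 1 (0.71, adjusted p = 0.0242).

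Of the 83 copies in no such group, 19 were higher and 13 lower. Ftl2-ps had 2303, 1758 and 2023 counts in WT and 9225, 8170 and 9750 in LKO livers. The narrow spread within each genotype put them far apart, at 29.5 ± 2.24 and 218 ± 13.9 CPM (log2 fold change 2.89 ± 0.15, adjusted p = 9.76e-05). Ftl1-ps1 had 3080, 2250 and 2617 counts in WT and 3945, 3510 and 4050 in LKO livers (1.27 ± 0.14, adjusted p = 0.000473). Among the pairs matched by name it was the one with opposite calls, and Ftl2-ps, which has no parent by name, likewise stood opposite to Ftl1. Ftl1 had 115191, 88461 and 102440 counts in WT and 23192, 18884 and 23093 in LKO livers and was 2.84-fold lower (adjusted p = 0.00059). On log2(TPM + 1) Ftl1-ps1 was itself at -0.27. Both copies made up 4.33 to 4.46% of the counts of the 3 genes in WT and 36.2 to 38.2% in LKO livers. The sum of the 3 was lower in LKO livers, 833 ± 39.8 against 1550 ± 118 CPM.

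Bhmt-ps1, a copy of the gene for betaine-homocysteine methyltransferase, an enzyme of liver methionine metabolism, had 1472, 711 and 1028 counts in WT and 6877, 3728 and 2380 in LKO livers. The lowest LKO mouse was above the highest WT mouse (2.77 ± 0.40, adjusted p = 0.00123), and Bhmt rose by 2.59 (adjusted p = 0.00249). Rbm3-ps, from a cold-inducible RNA-binding protein gene, had 122 to 207 counts in WT and 322 to 761 in LKO livers (2.50 ± 0.41, adjusted p = 0.00205), beside a rise of Rbm3 by 2.22. Gpx4-ps2, a copy of the glutathione peroxidase that reduces lipid peroxides, had 1917 to 2374 counts in WT and 4955, 10252 and 3363 in LKO livers (2.35 ± 0.46, adjusted p = 0.00457), beside a rise of Gpx4 by 2.21. In these 3 pairs parent and copy rose by similar amounts. Rbpj-ps2, from the gene of the Notch pathway's DNA-binding factor, had 7, 7 and 0 counts in WT and 24, 18 and 11 in LKO livers (2.64 ± 0.79, adjusted p = 0.0288). Its call was lost without WT mouse 1, WT mouse 2, LKO mouse 1 or LKO mouse 2 (adjusted p = 0.0538 to 0.0756), and Rbpj was not called (-0.09 ± 0.14, adjusted p = 0.642). Rbpj-ps2 reached the minimum through LKO livers alone, so its call is a description.

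Marcksl1-ps4 fell from 823, 848 and 997 counts in WT to 179, 127 and 115 in LKO livers, with no overlap (-1.94 ± 0.23, adjusted p = 0.000584). It lies in an exon of Akr1c19, an aldo-keto reductase gene, on the same strand. All windows of its GENCODE transcript of 291 bases occurred in Akr1c19, which was not called (0.28 ± 0.23, adjusted p = 0.364). Gpr137b-ps, an unprocessed copy of a lysosomal membrane protein gene, had 138, 249 and 176 counts in WT and 18, 27 and 47 in LKO livers (-1.91 ± 0.41, adjusted p = 0.00714), and Gpr137b was not called (0.50, adjusted p = 0.233). Pisd-ps2 and Pisd-ps1, unprocessed copies of the mitochondrial phosphatidylserine decarboxylase gene, fell by 1.75 and 1.65, and Pisd fell by 1.29 (adjusted p = 0.00073). Amd-ps3 and Amd-ps4 are processed copies closest to Amd1, an enzyme of polyamine synthesis, and fell by 1.68 and 1.55, beside a fall of Amd1 by 1.41 (adjusted p = 0.00123). Amd-ps3 had 183 to 281 counts in WT and 35 to 48 in LKO livers. Apc-ps1, in an exon of Tmem165 on the same strand, had 27, 55 and 17 counts in WT and 6, 5 and 7 in LKO livers (-1.74 ± 0.55, adjusted p = 0.0356). Its call was lost without any 1 mouse except WT mouse 3 (adjusted p = 0.0501 to 0.112), and Tmem165 rose by 0.79. Apc-ps1 reached the minimum through WT livers alone, so its call is a description.

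Both genes just inside the minimum were not called. Tpm4-ps had 16, 16 and 14 counts in WT and 0, 10 and 4 in LKO livers (-0.91 ± 0.84, adjusted p = 0.420), and Smarce1-ps1 had 14, 8 and 8 in WT and 11, 6 and 15 in LKO livers (0.79 ± 0.45, adjusted p = 0.193). Speer6-ps1, the locus in the name of the Alb-Cre allele, had 0 counts in all 6 mice, where a count of 0 allows up to 3 per library.

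The parents were compared in the same fit. Of 82 parents tested, 27 (32.9%) were higher and 15 (18.3%) lower in LKO livers, against 19.6% and 20.5% of all genes. The median log2 fold change of the parents was 0.09. Of the 105 pairs of copy and parent, both were higher in 26 and both lower in 5. The copy alone was higher in 7 and lower in 4, the parent alone higher in 10 and lower in 12, and neither was called in 39. The 7 include 4 Mup copies set against Mup21, a parent by synonym with 83.0 to 86.1% identity to them, whereas their closest coding genes, Mup6 (0.89) and Mup11 (1.90), were called higher. The 4 include Gstm2-ps1, whose closest gene Gstm1 was called lower. The opposite calls of Ftl1-ps1 and Ftl1 were 1 pair, and 1 parent was not tested. The difference in log2 fold change between copy and parent was within 1 in 85 of 104 pairs, with a median absolute difference of 0.29. It was 0.21 in the 47 pairs where at least 50% of the windows of the copy were shared and 0.34 in the 46 with less, which is a description, since pairs share mice, parents and reads.

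**Figure D3:**
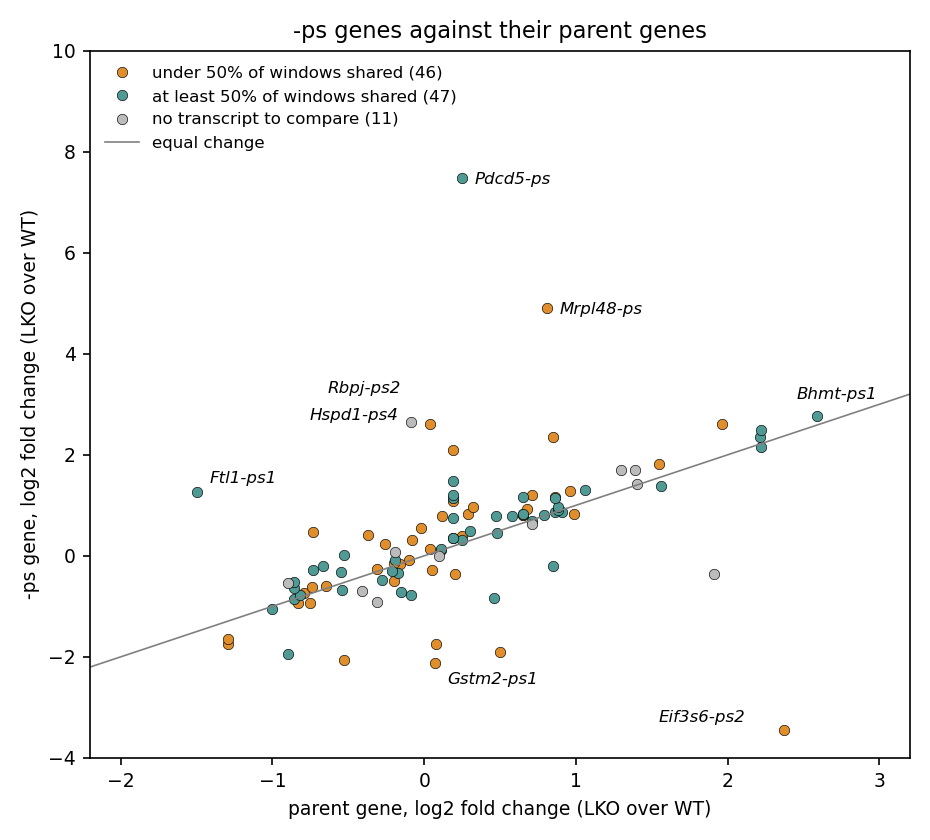
Log2 fold change of LKO over WT of each -ps gene (vertical axis) against that of its parent (horizontal axis) in 104 pairs, coloured by the share of 100-base windows of the copy found in other transcripts; the line marks equal change. In 85 pairs copy and parent lie within 1 of each other, and Pdcd5-ps and Mrpl48-ps lie farthest above the line.

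Within a mouse, the ratio of copy to parent needs no scaling between libraries, but a trend with gene length does not cancel in it. Over the 105 pairs, the median of log2((copy + 1) / (parent + 1)) was -4.55 ± 0.08 in WT and -4.31 ± 0.13 in LKO livers (mean ± SD, n = 3 each). This is a difference of 0.25. The median relative length was 1600 bases in -ps genes and 2030 in parents. With gene length offsets, the median log2 fold change was 0.07 in -ps genes and 0.03 in parents, against 0.29 and 0.09 without. The part of gene length in the ratio was not tested. Of 24 pairs, many of them named for their large changes, the ratio was higher in every LKO mouse for 13, lower for 5 and overlapping for 6, which is a description with no test. Within these 24, the largest differences upward after Pdcd5-ps (7.19) were those of Mrpl48-ps (3.84), Rbpj-ps2 (2.98), Ftl1-ps1 (2.77) and Hspd1-ps4 (2.44), on the log2 scale. The largest downward were those of Gpr137b-ps (-2.47), Gstm2-ps1 (-2.18, against Gstm2) and Cd63-ps (-1.93). Eif3s6-ps2 was not among the 24, and its log2 fold change minus that of Eif3e was -5.82, with 155 of its counts in WT mouse 1. Mrpl48-ps made up 0.740 to 0.993% of its pair in WT and 9.28 to 17.9% in LKO livers. Gpr137b-ps made up 49.1 to 51.1% in WT and 10.9 to 18.4% in LKO livers. Hspd1-ps3 and Pisd-ps2 overlapped in this ratio, and that of Mup-ps19 to Mup21 differed by -0.10, less than the spread between mice, although Mup20 (95.1% identity) is nearer to Mup-ps19 than Mup21 (83.6%).

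**Figure D4:**
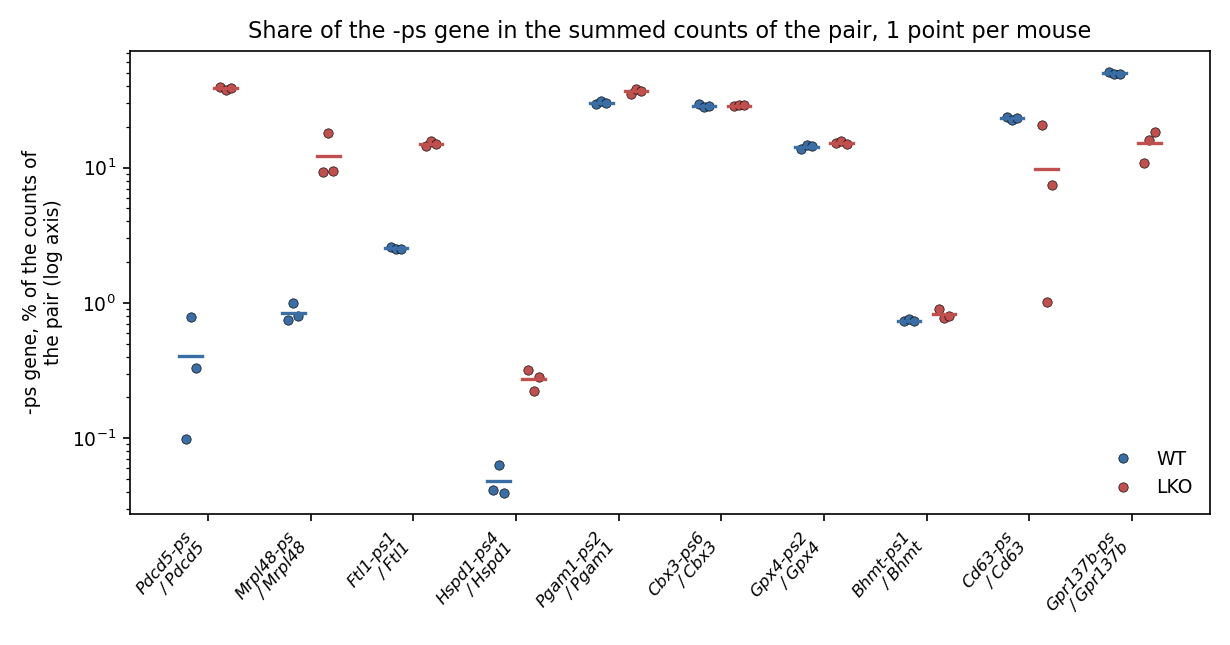
Share of the -ps gene in the summed read counts of copy and parent (percent, log axis) for 10 pairs, 1 point per mouse (n = 3 per genotype) with a bar at the mean. The share of Pdcd5-ps was under 1% in WT and 37.5 to 39.3% in LKO livers, whereas that of Cbx3-ps6 lay at 28.0 to 29.6% in all 6 mice.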

How the data were processed

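Liver RNA of 3 WT and 3 LKO mice was sequenced by the authors as paired reads of 100 bases. Both kits named are stranded. The processing notes name HISAT2 2.1.0, Bowtie2 2.3.4.1 and StringTie 2.1.3b on mm10. For 45777 genes, the authors deposited raw read counts, FPKM and TPM (both scaled for gene length and depth) in 1 table. The methods and the labels name different library kits, one after removal of rRNA and one that selects mRNA, and the use of strand and the treatment of reads that fit several loci are not given in the sources used here. The authors' read counts of near-identical copies are therefore uncertain.

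Genes with at most 1 zero count among 6 mice were tested (18636) with edgeR 4.0.16 (TMM, quasi-likelihood test, two-sided, Benjamini-Hochberg adjustment over all genes, threshold 0.05). Total counts were 45934632 to 59576437 per mouse. Errors are the SD over 3 mice or an SE worked back from the test. This SE is the absolute log2 fold change over the square root of the F statistic of the quasi-likelihood test. Relative length is read count over FPKM. Parents were found by symbol or RefSeq synonym, and classes and sequences came from GENCODE M21. Sequences were compared with blastn. The members and lists were chosen with earlier results of these data known. Named genes were Pdcd5-ps, Speer6-ps1, the 10 largest called rises and falls, the 5 most abundant, 4 next to the minimum, pairs called in opposite directions, and the most abundant of each role group, with further family members named after their values were seen. On simulated counts with 200 changed genes the procedure was tested beforehand. Alternatives were other tests, scalings, filters, a replicate block, length offsets, TPM with pseudocounts of 1 and 0.1, and leaving out each mouse. 4 settings were added after the data were seen.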

Additional observations from a re-analysis of the deposited data

How the results depend on the processing

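On total counts, which change the scaling alone, 15 -ps genes were higher and 56 lower. Where test, length scaling and depth scaling change together, the counts were, with limma on log2(TPM + 1) 5 and 94, and on log2(TPM + 0.1) 8 and 97. Parents were 11 higher and 51 lower on total counts, 4 and 68 on log2(TPM + 1), and 2 and 69 on log2(TPM + 0.1). Over all 18636 genes, 1167 were higher and 9575 lower on total counts. These numbers were 399 and 12519 on log2(TPM + 1), and 430 and 13421 on log2(TPM + 0.1). The TPM ratio of copy to parent differed by 0.77 between the genotypes, against 0.25 for counts. A pseudocount weighs far more on low TPM than on counts. Tubb4b-ps1, for example, had 0.876 ± 0.0425 TPM but 83 to 86 counts in LKO livers. The part of the pseudocount in the gap was not tested. Leaving out genes that overlap another gene left 27 higher and 10 lower, processed copies alone 27 and 10, and copies with under 50% of windows shared 18 and 12, each by fewer genes counted. With any 1 mouse left out, 28 to 43 -ps genes were higher and 13 to 17 lower, 21 to 28 parents higher and 11 to 16 lower, Pdcd5-ps was at 7.01 to 8.32 and the ratio difference at 0.20 to 0.32.

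Single genes turned direction as follows, on total counts, log2(TPM + 1) and log2(TPM + 0.1) in this order: Mug-ps1 -0.54, -1.17 and -1.21, Mup-ps19 -0.59, -1.41 and -1.41, Smarce1-ps1 -0.04, -0.10 and -0.44, Ifi203-ps -0.33, -0.64 and -0.96, Cbx3-ps6 -0.02, -0.61 and -0.68, Hspd1-ps3 -0.74, -1.01 and -1.34, and Ube2d-ps -0.08, -0.59 and -0.75. Only the TPM scales turned Ftl1-ps1 (-0.27 and -0.27) and Eif4a-ps4 (-0.39 and -0.42). Mup-ps19 was at -0.16 with gene length offsets, -0.35 with these and the replicate block, and -0.15 (without LKO mouse 2) to 0.74 (without LKO mouse 1) with 1 mouse left out. Hspd1-ps3 was at -0.07 without WT mouse 2, -0.02 without LKO mouse 2, and up to 0.34 without WT mouse 1. The cause was not tested.

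The replicate numbers are shared between the genotypes, and the sources used here do not say that they pair mice. Deviations of same-numbered mice correlated at 2e-04, -0.039 and -0.0557. With 3 mice per group this cannot exclude a shared litter or batch. With the replicate block 34 -ps genes were higher and 15 lower. Counts under 100 for 71 of the 144 genes limit the precision.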
